A study of Haberlea rhodopensis with 10 samples.

Results

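The CYSTM1 stress peptides described here are 3 unigenes, CL3154.Contig1, CL3154.Contig2 and Unigene32995, out of 142473 unigenes in the table. A unigene is a transcript assembled from the reads without a genome. The 3 members were chosen because their best Swiss-Prot protein was CYSTM1 family protein A, and because earlier results of these libraries had shown them rising during drying and standing above the fresh level after rehydration. Their differences from fresh leaves were therefore used in the choice and are given below as a description with no test. In all, 41 unigenes had this Swiss-Prot best hit, and 54 carried a CYSTM name in any annotation.

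Leaves of Haberlea rhodopensis, a resurrection plant whose leaves survive drying, were sampled at 5 stages with 2 libraries each. The stages were fresh, watered leaves (F, 90% relative water content, RWC, in the design text and about 100% in the sample labels), slight dehydration (D75, 75% RWC), severe dehydration (D20, 20% RWC), the dry state (DT, 6% RWC in the design text and below 5% in the labels) and recovery after watering (R, 90% RWC in the design text and about 100% in the labels). All plants were propagated in vitro and grown in pots under controlled conditions. Drying plants were left without water and took at least 8 days to desiccate fully, and those of R had been dry for 10 days before they were watered and had recovered for a week. At least 4 plants were sampled per point, but how they were divided between libraries is not stated, so the p-values measure the spread between libraries only.

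CYSTM proteins are small proteins found in many eukaryotes, named for a cysteine-rich transmembrane module at their C-terminal end. In Arabidopsis, PCC1 is a member and responds to the circadian clock and to pathogens, and CDT1 proteins of rice and of the grass Digitaria ciliaris raise cadmium tolerance when expressed in yeast. Members in several species have been tied to tolerance of abiotic stress. Their part in desiccation of Haberlea is not known from these data, which hold transcript levels only.

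The libraries held 4522835 to 12734565 fragments on unigenes, with the fewest in F replicate 2. Levels are FPKM, fragments per kilobase of unigene scaled to the library total, rescaled by trimmed-mean (TMM) factors of 0.80 to 1.42, and means are given ± SD (n = 2). A unigene was tested if its FPKM reached 1 in at least 2 libraries, which 85267 unigenes and all 3 members did, although the members passed through the stages in which they were high. A call is an adjusted p below 0.05 in edgeR's quasi-likelihood test with Benjamini-Hochberg adjustment. Since total RNA of whole leaves was sequenced, a change in the cells of a type and a change in RNA per cell cannot be told apart.

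The members were alike in their best protein hits, whereas their best nucleotide hits differed. CL3154.Contig1 was 573 nt long, CL3154.Contig2 548 nt and Unigene32995 736 nt. Their alignments to CYSTM1 family protein A scored 56.2, 55.8 and 56.2 bits, against 42.4 to 164 bits over the 48 unigenes with a CYSTM1 family best hit in Swiss-Prot. In the Nr protein database all 3 had the same best hit, a hypothetical protein of Citrus clementina, at 97.8 bits. CL3154.Contig3 (464 nt) and CL3154.Contig5 (527 nt), which are not members, shared that hit. CL3154.Contig1 and CL3154.Contig2 belong to one assembly cluster, and reads shared between such similar contigs can be split between them by the counting, so the separate levels of the members are uncertain and their sum is given as well.

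CL3154.Contig1 was near absent in fresh leaves and was the most abundant member from D20 onwards. Its rescaled FPKM was 0.962 and 0.272 in the F libraries, from 5 and 1 fragments, and 1.21 and 4.23 at D75. The D20 libraries held 1347 and 1415, those of DT 944 and 1159, and those of R 60.3 and 54.9. No library of D20 or DT overlapped with those of any other stage, and both R libraries lay between D75 and DT. At D20 its level ranked 88th and 71st in the library, and in F it ranked 53815th and 91781st.

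CL3154.Contig2 followed the same course at a lower level. Its rescaled FPKM was 0 and 0.285 in F (0 and 1 fragments) and 1.64 and 3.21 at D75. The D20 libraries held 435 and 514, the DT libraries 251 and 287, and the R libraries 14 and 10.8. Both F libraries were below the level that 3 fragments would give, 0.603 and 0.854, so a fresh level was not detectable at this depth. The stages again did not overlap.

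Unigene32995, assembled outside that cluster, lay between the other members from D20 onwards and was the highest of the 3 by mean at D75. Its rescaled FPKM was 0.3 and 0.212 in F (2 and 1 fragments) and 1.22 and 5.23 at D75. The D20 libraries held 644 and 702, the DT libraries 478 and 536, and the R libraries 20.7 and 22.7. Its F libraries were also below the 3-fragment level of 0.449 and 0.636. In all 3 members the order of the stages was F, D75, R, DT and D20 from lowest to highest by mean, with F and D75 resting on few fragments.

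**Figure D1:**
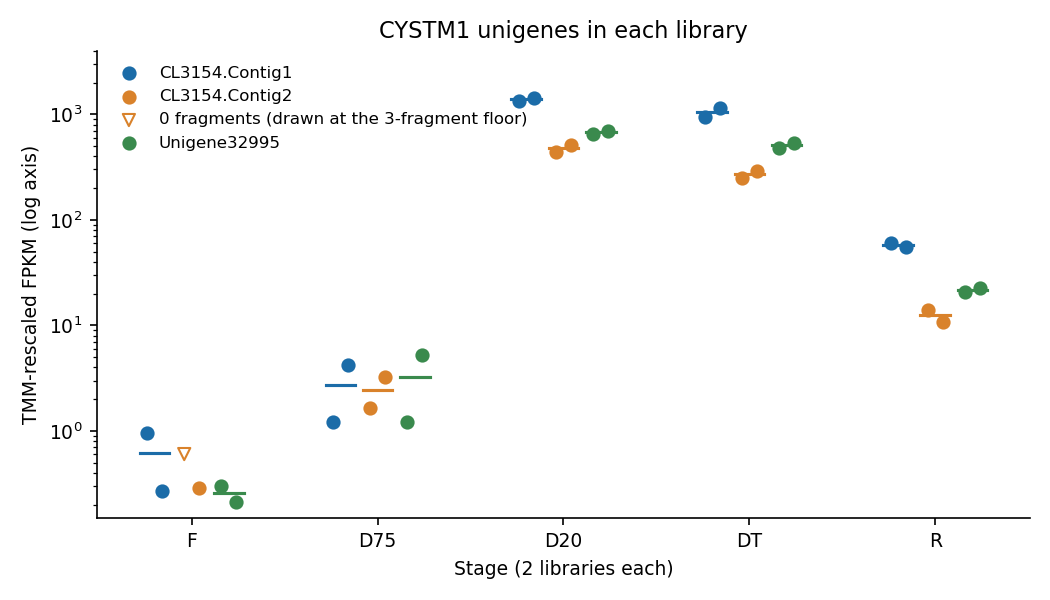
Rescaled FPKM of the 3 CYSTM1 unigenes in each library (log axis) by stage; points are libraries, short lines are means of 2, and the open triangle is a library with 0 fragments drawn at the 3-fragment level. Levels at D20 lie between 435 and 1415, and those in F do not exceed 0.962.

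As a description of what the choice used, the mean of CL3154.Contig1 was 0.617 ± 0.488 in F, 2.72 ± 2.14 at D75, 1381 ± 47.8 at D20, 1052 ± 152 at DT and 57.6 ± 3.8 at R. That of CL3154.Contig2 was 0.142 ± 0.201, 2.42 ± 1.11, 474 ± 55.7, 269 ± 25.8 and 12.4 ± 2.29 in the same order. That of Unigene32995 was 0.256 ± 0.062, 3.23 ± 2.83, 673 ± 41.1, 507 ± 40.5 and 21.7 ± 1.42. By pooled fragments, R stood over F by a ratio of 85.1 for CL3154.Contig1 (95% counting interval 38.8 to 233), 105 for CL3154.Contig2 (18.5 to 4179) and 82.7 for Unigene32995 (28 to 403). These intervals cover counting error only and are wide because the F libraries together held 6, 1 and 3 fragments of the members. The D20 ratios over F were 2042 (938 to 5565), 4023 (722 to 158924) and 2557 (875 to 12404).

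Over all tested unigenes, 0.683% were called higher and 1.13% lower at D75 than in F, 13.4% higher and 18.5% lower at D20, 9.46% higher and 13.1% lower at DT, and 0.0293% higher and 0.00938% lower at R. The R percentages correspond to 25 and 8 unigenes, counts that became 0 and 0 without F replicate 1 or R replicate 2, 1001 and 834 without D75 replicate 1, and 412 and 216 by DESeq2. Nothing is read from the place of the members among them, since these contrasts chose them.

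From D20 to full dryness the members stayed within a log2 unit of their level, and after watering they stood more than 4 log2 units lower. The choice used the levels of D20, DT and R through their comparisons with F, so the differences among these stages are given as estimates with their SE and 95% interval from the edgeR fit, with no test. DT differed from D20 by −0.39 on the log2 scale for CL3154.Contig1 (SE 0.51, interval −1.51 to 0.72), by −0.82 for CL3154.Contig2 (SE 0.44, −1.77 to 0.13) and by −0.41 for Unigene32995 (SE 0.51, −1.52 to 0.70). Both DT libraries lay below both D20 libraries in each member, but each interval includes 0 and reaches falls of more than a log2 unit. Of all tested unigenes 0.228% were called higher and 0.111% lower at DT than D20, and the median difference was 0.00.

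After watering all 3 members were lower than in the dry state, with both R libraries below both DT libraries. R differed from DT by −4.19 on the log2 scale for CL3154.Contig1 (SE 0.59, interval −5.46 to −2.92), an 18.3-fold lower level. For CL3154.Contig2 the difference was −4.44 (SE 0.51, −5.53 to −3.34), or 21.7-fold lower, and for Unigene32995 −4.54 (SE 0.59, −5.83 to −3.25), or 23.3-fold lower. Over all tested unigenes 5.63% were called lower and 9.52% higher in this comparison, and the median was 0.13. Between 1.88% and 2.79% of tested unigenes had a lower log2 difference than a member.

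Against D20 the differences were larger in size. R differed from D20 by −4.58 for CL3154.Contig1 (SE 0.60, interval −5.88 to −3.29), −5.25 for CL3154.Contig2 (SE 0.52, −6.39 to −4.11) and −4.95 for Unigene32995 (SE 0.60, −6.26 to −3.64). Of all tested unigenes 10.6% were called lower and 15.3% higher in this comparison, with a median of 0.22. The study lists another raw read length for D75 and D20 than for F, DT and R. R against D20, DT against D20, and D75 and D20 against F therefore cross these sets, whereas R against DT, DT and R against F, and D20 against D75 each lie within a set. The part of the read length in the values was not tested.

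**Figure D2:**
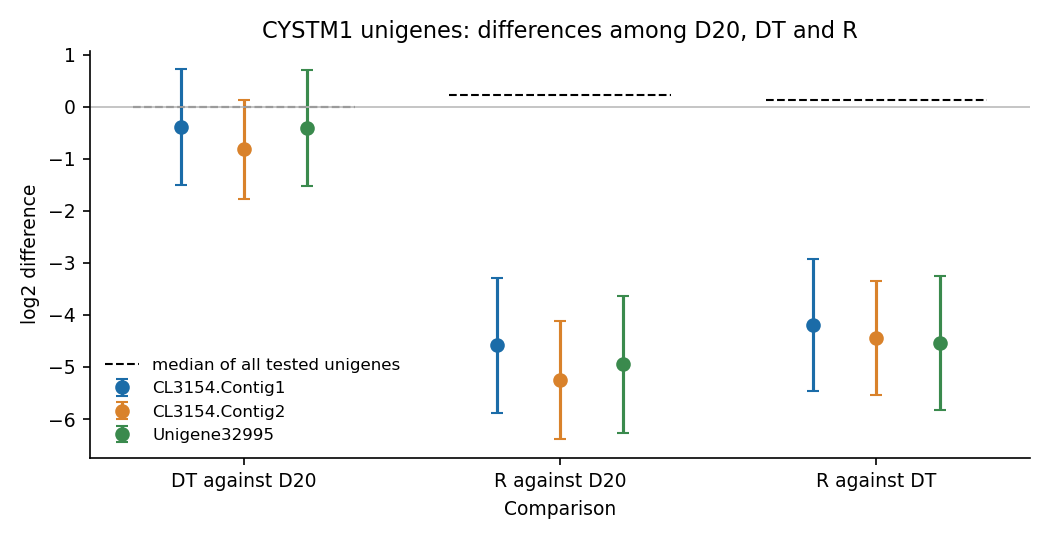
Log2 differences of the 3 CYSTM1 unigenes between D20, DT and R; points are edgeR estimates, bars their 95% intervals, and dashed lines the median of all 85267 tested unigenes. Intervals for DT against D20 include 0, while those for R against D20 and R against DT lie below −2.

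The members stood at a smaller share of the dry level after watering than most unigenes that rose with them. The share includes any fresh level, which differs between unigenes, so it does not measure how much of a rise was left. At R, CL3154.Contig1 stood at 5.48% of its DT mean, CL3154.Contig2 at 4.61% and Unigene32995 at 4.29%. The 6752 other unigenes called higher than F at both D20 and DT stood at a median of 27.1% of the DT level. Of them 7.14% stood at a smaller share than CL3154.Contig1. Of these 6752, 16 were called higher at R than in F, beside 0.0293% of all tested unigenes (25 of 85267). The same F libraries entered both the choice of the 6752 and this call, which are therefore not independent. Thus the members stood far above F at R although little of the dry level was left, F being close to 0. The choice required a raised level at R, so the low share of the members is given with no test. Early light-induced proteins (ELIPs) bind pigments in the thylakoid membrane and are thought to protect against light stress. The 19 ELIPs called higher at both stages stood at a median of 6.94%. Late embryogenesis abundant (LEA) proteins and dehydrins, hydrophilic protectants of drying cells, stood at a median of 27.7% over 39. The 9 other CYSTM family unigenes called higher at both stages stood at 5.23% to 59%, with a median of 18.4%. CL3154.Contig3 was the lowest of these, at 5.23%, within the range of the members, and CL5486.Contig4 stood at 6.11%. The low share was thus not particular to the members.

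**Figure D3:**
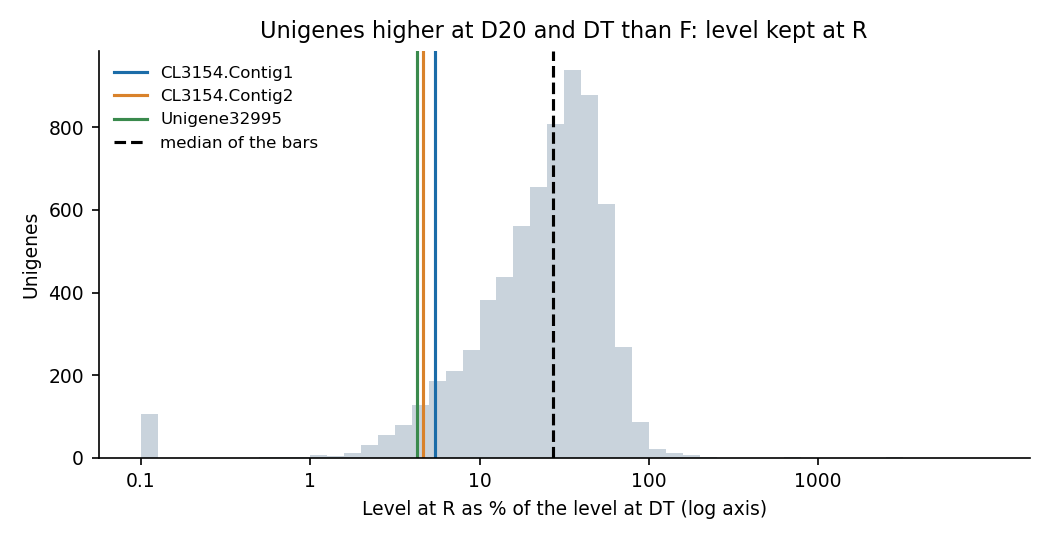
Number of unigenes by the level at R as a percentage of the level at DT (log axis), for 6752 unigenes called higher at D20 and DT than F; values of 0.1% or less (106 unigenes) are drawn in the leftmost bar. Coloured lines are the members, at 4.29% to 5.48%, and the dashed line is the median, 27.1%.

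The 5 unigenes with the shared Nr protein were summed because reads can be split among them. In fragments the sum was 21 and 3 in F and 191 and 157 at D75. In D20 the libraries held 25112 and 25749, the DT libraries 12191 and 17207, and the R libraries 685 and 753. As rescaled FPKM it was 4.59 and 0.769 in F and 24.4 and 23.7 at D75. At severe dehydration the libraries held 4489 and 4620.3, the DT libraries 2465 and 3391, and the R libraries 146 and 153. The D75 libraries thus held nearly equal sums, both above F, although each member was higher in D75 replicate 2.

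The D75 libraries differed in which contig took the fragments. CL3154.Contig5 took 80.1% of the fragments of the 5 unigenes in D75 replicate 1 (153 of 191) and none in replicate 2. In replicate 2 CL3154.Contig3 took 38.9%. Outside D75 replicate 1 CL3154.Contig5 was seen at D20 alone, with 35 and 39 fragments. On the log2 scale the difference of D75 replicate 2 over replicate 1 was 1.73 for CL3154.Contig1, 0.93 for CL3154.Contig2, 2.01 for Unigene32995 and 4.80 for CL3154.Contig3. The median was 0.00 over all tested unigenes and 0.34 over those called higher at D20 than F. Replicate 2 of D75 therefore had more of each member than replicate 1, with differences above both medians.

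From D20 onwards CL3154.Contig1 held the largest level of the members in every library. It exceeded CL3154.Contig2 by a ratio of 2.75 to 5.09 in rescaled FPKM across the D20, DT and R libraries, against 0.736 and 1.32 in the D75 libraries, and it exceeded Unigene32995 by 1.97 to 2.91. Its share of the fragments of the 5 unigenes was 31.6% and 32% in the D20 libraries, 38.7% and 35.5% in those of DT, and 42.6% and 37.5% in those of R, while that of CL3154.Contig2 stayed between 7.04% and 11.1%. Against F by pooled fragments the sum of the 5 stood at a ratio of 53.3 at R (counting interval 35.7 to 83.4), below the ratios of the members alone.

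**Figure D4:**
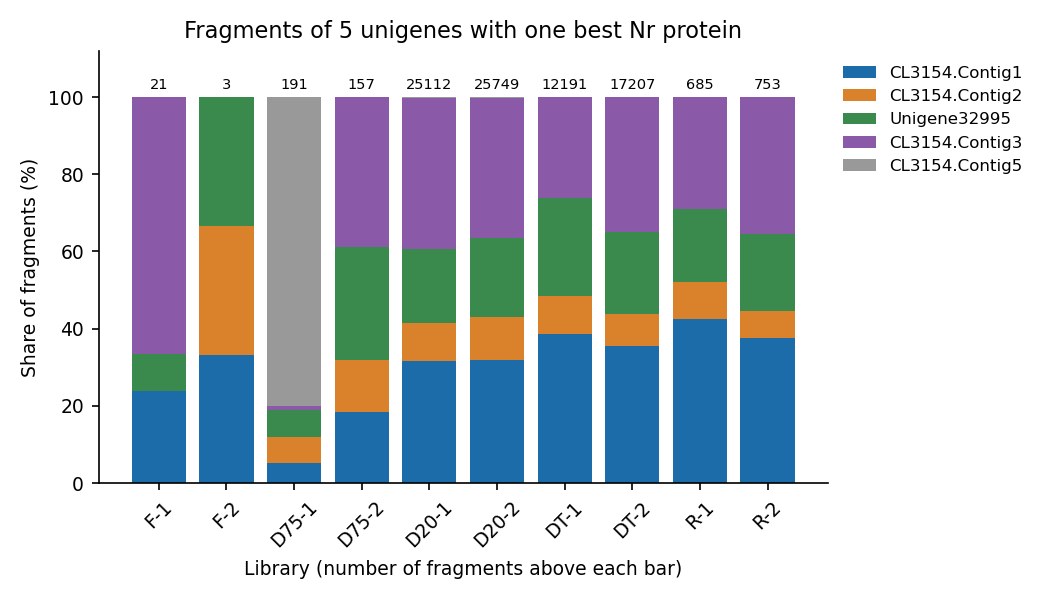
Share of fragments (%) on each of the 5 unigenes with the same best Nr protein in each library, with the number of fragments above each bar. CL3154.Contig5 holds 80.1% in D75 replicate 1 and at most 0.151% in the D20 libraries.

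CL3154.Contig3 had the same course as the members and was not among them. It can share reads with the members, so its calls below are not independent of their choice. Its rescaled FPKM was 3.33 and 0 in F and 0.298 and 11 at D75. The D20 pair held 2056 and 1982, the DT libraries 792 and 1409, and the R libraries 50.7 and 64.4. It was higher at D20 than F by 10.10 on the log2 scale (SE 1.47, adjusted p = 4.1e-04) and at DT by 9.23 (SE 1.42, adjusted p = 9.8e-04), and lower at R than DT by −4.25 (SE 1.10, adjusted p = 0.023). At R it stood over F by 4.97 (SE 1.23, adjusted p = 0.25), which was not called. The choice states no numerical threshold and gives no reason for leaving this contig out. By pooled fragments the R over F ratio of this contig was 29.7, beside 82.7 for the lowest member.

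The wider CYSTM family held unigenes that rose, fell and stayed level. Of the other 51 family unigenes 38 were tested, in 21 assembly clusters. At D20, 13 of the 38 were higher than F, where 13.4% of all tested unigenes were higher, and 4 were lower, where 18.5% of all were lower, and the median log2 difference was 0.77 beside −0.40 over all tested unigenes. The 13 came from 7 clusters, so they are not 13 independent genes. CL3154.Contig3, from the cluster of CL3154.Contig1 and CL3154.Contig2, was among them. At DT 10 were higher and 3 lower, beside 9.46% and 13.1% of all tested unigenes, with a median of 0.02 beside −0.29, and 9 were higher at both stages. Without F replicate 2 the count higher at DT was 5. The 3 lower at DT became 0 without F replicate 1 or DT replicate 2 and 1 without R replicate 1, and the 4 lower at D20 became 2 without either D20 library. Without either D75 library 15 were higher at DT.

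Beside CL3154.Contig3, a large rise was seen in CL1016.Contig1, from another cluster. Its rescaled FPKM was 6.35 and 1.46 in F and 6.94 and 63.2 at D75. The D20 pair held 1578 and 1398, the DT libraries 411 and 349, and the R libraries 54.5 and 52.1. It was higher at D20 by 8.53 (SE 1.09, adjusted p = 1.9e-04) and at DT by 6.56 (SE 1.00, adjusted p = 9.2e-04). CL1016.Contig2 and CL1016.Contig3 were higher at D20 too, by 6.89 and 7.11. Their D75 libraries stood at 0.654 and 14.9 and at 0.113 and 23.2, so in all 3 of that cluster replicate 2 was above replicate 1, as in the members.

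Some family unigenes that rose were already abundant in fresh leaves. CL14248.Contig5 was at 107 and 64 in F and at 1356 and 1178 at D20, a difference of 3.89 (SE 0.62, adjusted p = 7.3e-04). CL1760.Contig1 was at 145 and 68.6 in F and at 873 and 633 at D20, a difference of 2.81 (SE 0.60, adjusted p = 0.0040), and CL1760.Contig2 was higher by 3.08. Among weakly expressed unigenes, CL5486.Contig4 was higher by 5.42 at D20 and 5.41 at DT, and was lower at R than DT by −4.02 (SE 0.54, adjusted p = 8.1e-04). CL5486.Contig5 and Unigene48497 were higher at both stages, CL14248.Contig2, CL14248.Contig3 and CL4975.Contig4 at D20 alone by the threshold, and CL5486.Contig2 at DT alone by the threshold.

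Other family unigenes ran opposite to the members. Unigene14699 was at 123 and 57.2 in F, 5.94 and 0.716 at D20, and 141 and 61.4 at R. It was lower at D20 by −4.75 (SE 0.96, adjusted p = 0.0029) and higher at R than DT by 2.89 (SE 0.87, adjusted p = 0.042). Unigene43310 was lower at D20 by −3.97 (SE 0.61, adjusted p = 5.8e-04), Unigene23968 by −2.07 and Unigene9649 by −1.98. Unigene47374, at 54 to 129 over the 10 libraries, was not called in any comparison with F.

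Of the 38 tested family unigenes other than the members, edgeR called none higher or lower than F at R or at D75. The members were not tested in these comparisons. In R against F 0 of the 38 tested family unigenes passed the threshold by edgeR's quasi-likelihood test. Over all tested unigenes 0.0293% were called higher and 0.00938% lower, so a count of 0 does not set the family apart. An unadjusted p below 0.05 was reached by 5 of the 38, all higher, beside 7469 of all 85267. DESeq2 called 1 higher. At D75 the count was likewise 0 by edgeR, beside 0.683% higher and 1.13% lower of all tested unigenes. There 8 reached an unadjusted p below 0.05 (5 higher and 3 lower), beside 14450 of all 85267. DESeq2 called 4 higher and 1 lower at D75. Against DT, 3 of the 38 were higher at R and 3 lower, beside 9.52% and 5.63% of all tested unigenes. Whether the members differ from the family at R was not tested, since the members were selected on that stage.

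**Figure D5:**
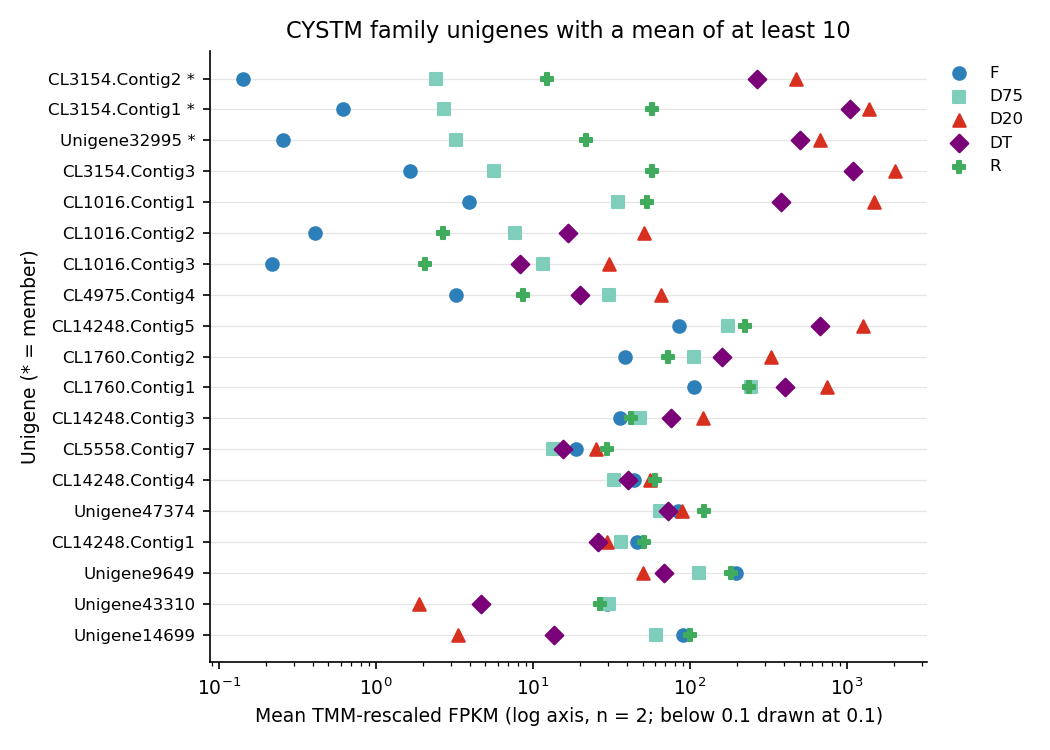
Mean rescaled FPKM (log axis, n = 2) of the 19 CYSTM family unigenes with a mean of at least 10, one marker per stage; asterisks mark the 3 members. The members have fresh means of 0.142 to 0.617 beside D20 means of 474 to 1381, and Unigene14699 and Unigene43310 at the bottom are lowest at D20.

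Among other small or cysteine-rich stress proteins, calls at D20 went in both directions, and they are read against the 13.4% higher and 18.5% lower of all tested unigenes. Of 12 tested small hydrophobic stress peptides, membrane peptides induced by cold and salt, 1 was called at D20. It was Unigene28868 (LTI6B), at 190.0 ± 157 in F, 4570.0 ± 771 by D20, 1133 ± 85.5 when dry (DT) and 456 ± 32.1 at R, higher at D20 by 4.59 (SE 0.76, adjusted p = 8.8e-04). Of 13 plant cadmium resistance proteins, cysteine-rich membrane proteins of another family, 4 were higher and 3 lower at D20, and the most abundant, CL16916.Contig1, moved from 3.9 ± 0.768 to 9.44 ± 1.7 (adjusted p = 0.023). Of 17 metallothioneins, small cysteine-rich metal-binding proteins, 3 were higher, near the share of all tested unigenes, and 6 lower at D20. CL635.Contig3, of type 2, was higher by 4.06 at D20 (10918 ± 1932 against 655 ± 255, adjusted p = 9.5e-04).

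Gibberellin-regulated peptides, cysteine-rich secreted peptides of growing tissue, were mostly lower in drying leaves. At D20 17 of 24 were lower than F, beside 18.5% of all tested unigenes, and the other 7 were not called. CL5985.Contig4 fell from 284 ± 38.6 to 3.76 ± 1.13 (log2 difference −6.23, adjusted p = 3.1e-05) and was at 357 ± 152 at R. COP9 signalosome subunits, which regulate protein degradation, had 3 of 32 higher and 3 lower at D20, shares no larger than those of all tested unigenes, and Unigene33563 (subunit 1) was at 70.2 ± 9.92 in F and 86.6 ± 2.63 at DT (adjusted p = 0.57). The list for insertion of tail-anchored proteins matched 0 unigenes.

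Most ELIPs and LEA proteins were higher at D20, as the members were. Shares over all tested unigenes were 13.4% higher and 18.5% lower at D20, and 0.0293% higher at R than F. Of 22 tested ELIPs, 19 were higher and 1 lower at D20, and 3 were higher at R than F. The most abundant, CL3769.Contig7, was at 2.57 ± 0.107 in F, 8299 ± 3233 by D20, 16707 ± 944 when dry (DT) and 1563 ± 88.3 at R. Unlike the members, its mean was higher at DT than at D20. Of 85 LEA proteins and dehydrins, 58 were higher and 1 lower at D20. Unigene36452, the most abundant, was at 7367 ± 6113 in F and 20694 ± 44.7 at D20 (adjusted p = 0.16).

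Cell type markers changed over the same stages as the members. Their calls at D20 are read beside the 13.4% higher and 18.5% lower of all tested unigenes. Leaf mesophyll markers, RuBisCO small chains and chlorophyll a-b binding proteins, were present in fresh leaves at a summed rescaled FPKM of 32620.3 to 33335, which checks the leaf label. The sum was 15048 to 26210.1 at D75, 559.5 to 905 at D20, 3071 to 3408 at DT and 30641 to 34666 at R, and 40 of 49 were lower at D20 than F. CL7824.Contig2, a RuBisCO small chain, was at 7846 ± 1942 in F and 37.9 ± 8.79 at D20. Of 42 epidermis markers 25 were lower at D20, with sums of 368 to 407 in F and 15.9 to 21.4 at D20; CL14201.Contig1 (KCS6, a cuticular wax enzyme) was at 157 ± 31.5 and 0.192 ± 0.193. Of 9 vascular markers 5 were lower, with sums of 25.3 to 46 in F and 3.97 to 4.59 at D20, and Unigene48693 (a xylem cysteine proteinase) was at 17.7 ± 6.56 and 0.0399 ± 0.0564. Of 14 guard cell markers 3 were higher and 7 lower, with a median log2 difference of −3.48 at D20. Their sums went the other way, with 22.6 to 25.2 in F and 31.1 to 45.5 at D20. The most abundant, CL4920.Contig2 (KAT3), was at 0.856 ± 0.594 and 18.9 ± 6.8. Its mean rose by more than the mean of the sums, so the direction of the guard cell sums rests on this unigene. Over D75, DT and R the sums ran at 102 to 151, 21.1 to 22.2 and 258 to 361 for epidermis, 5.11 to 5.87, 2.29 to 2.96 and 16 to 64.9 for vascular tissue, and 21.3 to 22.7, 25.9 to 45.5 and 19.9 to 29.9 for guard cells. The part of these changes in the levels of the CYSTM1 unigenes was not tested.

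Across the 10 libraries the members had closely like courses. The Pearson correlation of log2(rescaled FPKM + 1) was 0.994 between CL3154.Contig1 and Unigene32995, 0.996 between CL3154.Contig2 and Unigene32995, and 0.987 between CL3154.Contig1 and CL3154.Contig2. The libraries fall into 5 stages and all values share them, so these are descriptions. Among 5899 named unigenes with a mean of at least 10, 3, 7 and 13 reached 0.99 with CL3154.Contig1, CL3154.Contig2 and Unigene32995. These counts include the member itself and the other members that reached 0.99.

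For CL3154.Contig1 the most alike was CL3769.Contig2, an ELIP1 (0.997), whose mean rescaled FPKM was 0 in F, 1.55 in D75, 342 in D20, 306 in DT and 23.9 in R. Next were Unigene8675, the sterol glucosyltransferase UGT80A2, CL12844.Contig3, the autophagy protein ATG3, at 7.13 in F and 26 at D20, CL7715.Contig3, annotated as a non-functional codeinone reductase (0.989), and CL3154.Contig3 (0.989).

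For CL3154.Contig2 the most alike was CL11024.Contig1, the ethylene-responsive transcription factor 3 (0.994), at 6.5 in F, 24.2 at D20 and 10.5 at R. ATG3 (0.993) came next, then CL8675.Contig3 (0.992), galactinol synthase 2, which makes the precursor of raffinose sugars, at 1.36 in F, 1085 by D20, 434 when dry (DT) and 26.3 at R. CL14634.Contig1, a peroxisomal 3-ketoacyl-CoA thiolase of fatty acid breakdown (0.991), and CL13317.Contig7, the transporter NRT1/PTR FAMILY 2.13 (0.991), followed. A high correlation here marks a like course and not a like size, since the thiolase had 12.4 in F and 126 at D20.

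For Unigene32995 the most alike were CL7715.Contig3 (0.995), at 3.23 in F, 245 by D20, 208 when dry (DT) and 20.7 at R, and CL9747.Contig7, a UDP-glucuronic acid decarboxylase of cell wall sugar synthesis (0.995). ATG3 (0.994), CL14600.Contig8, an MLO-like membrane protein (0.994), and the ELIP1 CL3769.Contig2 (0.993) followed. ATG3 was thus in the first 5 of all 3 members.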

How the data were processed

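Leaf RNA was measured in 10 libraries. The authors made the deposited fragment counts by trimming the reads with SeqPrep and Sickle, assembling them with Trinity and naming RSEM for abundances, without a genome; aligner and versions are not given in the sources used here. The deposited FPKM are those counts divided by unigene length and by library total, and a recomputation differed by at most 5.0e-05. The deposited bit score of each best database hit was used for identity only.

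The test on counts was the quasi-likelihood test of edgeR 4.0.16 under R 4.3.3 (TMM, glmQLFit, glmQLFTest, 1 coefficient per stage, all 10 libraries), with 5 residual degrees of freedom and Benjamini-Hochberg adjustment over 85267 unigenes that reached FPKM 1 in 2 or more libraries. limma 3.58.1 and DESeq2 1.42.0 gave alternatives, as did other scalings, filters, cluster sums, a replicate block and each library left out. The procedure was tested on simulated data. Tests of the members among D20, DT and R had been planned; since the choice of members used the levels of these stages, only estimates and intervals are given. Levels are FPKM rescaled by TMM factors. In single libraries 3 fragments were taken as the floor; ratio intervals are exact binomial ones at 95% and cover counting error only, as do the floors.

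The members and the lists, set as patterns on annotation text, were chosen with earlier results of these data known. Named unigenes are the members, other CYSTM family unigenes, the tested unigene with the highest mean FPKM in each other list, and for each member the 5 unigenes most alike (mean of at least 10, 1 per cluster and description). CL3154.Contig5 and the sum of 5 unigenes were singled out after their values were seen. 0 columns of library values were left unused. Sequences of the unigenes are not analysed here.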

Additional observations from a re-analysis of the deposited data

How the results depend on the processing

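The 9 comparisons of the members among D20, DT and R are estimates with no test, and kept their direction in all alternatives. The 189 values from these are not all separate. Those at the stricter threshold repeat the main estimate, and members of the same cluster or Nr protein share the same sum. The stricter threshold (a 2-fold change with an adjusted p of at most 0.001) is read for the family counts only. It does not alter an estimate, so the value for CL3154.Contig1 in R against DT stays at −4.19. With each library left out in turn, R against DT ran from −4.37 to −4.07 for CL3154.Contig1, −4.67 to −4.26 for CL3154.Contig2 and −4.66 to −4.50 for Unigene32995. DT against D20 ran from −0.94 to −0.16 over the members and alternatives. Replicate numbers did not pair across stages (correlations of replicate differences −0.175 to 0.0932). With the replicate block, R against DT was −4.17, −4.41 and −4.54, and the block moved no family count past 1.5 times. Mean levels at D20 in FPKM as deposited were 1117, 383 and 545.

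Family counts moved more. Higher at D75, the count of 0 became 5 with no filter, 1 in cluster sums, 4 by DESeq2 and 0 to 6 with a library left out. Lower at D75, it became 1 with no filter, by limma on log2(FPKM + 1) and by DESeq2, and 0 to 1 with a library left out. At the stricter threshold 5 were higher and 1 lower at D20, and 3 higher and 0 lower at DT. By limma with either pseudocount (1 or 0.1), 9 were lower at D20 and 5 at DT. With a library left out, 10 to 16 were higher and 2 to 6 lower at D20, and 5 to 15 higher and 0 to 4 lower at DT. Higher at R, the 0 became 3 with no filter, 5 with the 4 libraries compared alone, 1 by DESeq2 and 0 to 4 with a library left out. The causes were not tested.

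Calls over all unigenes depended on the libraries too. For DT against D20, 194 higher and 95 lower became 0 and 0 with the 4 libraries alone, 1054 and 922 by DESeq2, 902 and 953 with no filter, and 0 to 2125 and 0 to 2468 with a library left out. For R against DT, 8115 and 4802 became 12504 and 9134 with the 4 libraries alone, and 2660 to 13264 and 750 to 9439 with a library left out; for R against D20, 13028 and 9018 became 5540 to 18068 and 2695 to 13710. For R against F, 25 and 8 became 674 and 420 with no filter, 1183 and 1194 with the 4 libraries alone, 412 and 216 by DESeq2, and 0 to 1001 and 0 to 870 with a library left out. For D75 against F, 582 and 963 became 0 and 0 with the 4 libraries alone, 3334 and 2746 with no filter, 1508 and 1944 by DESeq2, and 1 to 4377 and 25 to 7106 with a library left out. For D20 against F, 11396 and 15740 became 6109 to 15559 and 7481 to 20710 with a library left out, and for DT against F 8064 and 11148 became 3318 to 12506 and 4915 to 16656. Depth limits the fresh level of the members, at 0 to 5 fragments per library.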

Other observations

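CL3154.Contig4, the remaining contig of the cluster, carried no CYSTM name and had its best nucleotide hit in the mitochondrion of Boea hygrometrica, as did Unigene32995. Its rescaled FPKM was 0 in both F libraries, 0 and 2.18 at D75. The D20 libraries held 23.3 and 26, the DT libraries 12.1 and 11.1, and the R libraries 1.23 and 1.51. It was lower at R than DT by −3.06 on the log2 scale (SE 0.94), just inside the threshold. The order of its stages was that of the members, at a far lower level. It was chosen for mention after its values were seen.

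The summed rescaled FPKM of the 51 other family unigenes was 1043 and 637 in F, 633 and 1528 at D75. The D20 libraries held 6844 and 6133, the DT libraries 2815 and 3506, and the R libraries 1354 and 1347. D75 replicate 1 lay at the fresh level and D75 replicate 2 above it. The sum over ELIPs showed the same split at D75, with 161 in replicate 1 and 1440 in replicate 2, beside 194 to 247 in F.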
